A study of Mus musculus with 4 samples.

Results

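The neutrophil and monocyte granule genes described here are Mpo, Elane, Prtn3, Ctsg, Lyz2, Ngp, Chi3l3, S100a8, S100a9 and F13a1. They were chosen by name as rows of the deposited gene table that carry library values, and all 10 were found among the 9244 genes with such values. RNA sequencing was done on long-term haematopoietic stem cells (HSCs) of C57BL/6 mice 8 to 12 weeks old, sorted as LSK (lineage-negative, Sca-1-positive, Kit-positive) cells that were negative for CD34 and Flk2. The study asked which genes Sin3B, a scaffold of histone deacetylase complexes, regulates in these cells. It compared 2 wild-type (WT) libraries with 2 libraries of Sin3B knockout (Sin3B KO) cells, numbered 1 and 2 in each genotype by their titles and 1 and 3 by their descriptions. The libraries are called WT 1, WT 2, Sin3B KO 1 and Sin3B KO 2 by their titles. The labels give no Cre driver and no allele for the knockout, do not say whether the libraries came from separate animals or pools, and do not say what the library number stands for. The error behind every p-value is therefore the variation among these 4 libraries, and part or all of it may be technical.

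Neutrophils are made in the bone marrow in stages, and each stage fills its own kind of granule. Primary (azurophil) granules form first, in promyelocytes, and hold myeloperoxidase (Mpo) and the neutrophil serine proteases elastase (Elane), proteinase 3 (Prtn3) and cathepsin G (Ctsg). Secondary granule proteins such as Ngp, and the cytosolic calcium-binding pair S100a8 and S100a9, come later in maturation. Chi3l3, named Chil3 in RefSeq and also known as Ym1, is a chitinase-like protein of myeloid cells. Lyz2 is the lysozyme of neutrophils and macrophages, and F13a1 is the coagulation factor XIII A subunit of monocytes, macrophages and platelets. Stem cells are the source of these lineages, and their sort gate is meant to leave out cells that have matured along them.

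Promoter sequence is shown for 6 of the genes. Whether it bears on the difference between libraries described below was not tested. RefSeq (GRCm38.p6) gave a start site for all 10 genes and a pair of start sites for F13a1, which makes 11 windows of 250 bases before the start. The authors' build is mm9, so these positions belong to GRCm38.p6 only. Each window was searched on both strands for AGGAAGT, a form of the site of the myeloid factor PU.1. It was searched in the same way for TTNNGNAA, a form of the C/EBP site, and for AACNGCC, a form of the MYB site. Other forms of these sites were not searched for, so a window without a match may hold one. Capitals mark every match to any of these motifs on either strand.
Mpo (chr11:87793534-87793783, plus strand): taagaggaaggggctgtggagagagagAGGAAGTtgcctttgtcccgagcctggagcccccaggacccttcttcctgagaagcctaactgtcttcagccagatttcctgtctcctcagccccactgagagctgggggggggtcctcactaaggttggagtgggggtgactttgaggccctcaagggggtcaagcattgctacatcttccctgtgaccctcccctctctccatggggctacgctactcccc
Elane (chr10:79886062-79886311, plus strand): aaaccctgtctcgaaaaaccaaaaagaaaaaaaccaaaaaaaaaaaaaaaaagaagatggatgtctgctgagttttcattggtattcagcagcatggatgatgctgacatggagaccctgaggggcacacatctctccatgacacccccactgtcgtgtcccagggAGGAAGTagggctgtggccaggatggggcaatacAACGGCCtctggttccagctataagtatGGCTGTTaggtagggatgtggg
Prtn3 (chr10:79879417-79879666, plus strand): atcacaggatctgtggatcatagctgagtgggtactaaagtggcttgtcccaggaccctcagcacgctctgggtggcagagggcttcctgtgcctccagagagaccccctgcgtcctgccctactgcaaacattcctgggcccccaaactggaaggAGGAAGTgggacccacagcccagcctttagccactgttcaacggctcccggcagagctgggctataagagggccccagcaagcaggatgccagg
Ctsg (chr14:56102575-56102824, minus strand): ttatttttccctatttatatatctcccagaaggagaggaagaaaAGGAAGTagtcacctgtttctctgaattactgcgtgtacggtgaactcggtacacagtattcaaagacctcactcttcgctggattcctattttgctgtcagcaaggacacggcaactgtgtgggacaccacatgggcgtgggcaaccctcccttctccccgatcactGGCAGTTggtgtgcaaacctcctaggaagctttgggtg
S100a8 (chr3:90668821-90669070, plus strand): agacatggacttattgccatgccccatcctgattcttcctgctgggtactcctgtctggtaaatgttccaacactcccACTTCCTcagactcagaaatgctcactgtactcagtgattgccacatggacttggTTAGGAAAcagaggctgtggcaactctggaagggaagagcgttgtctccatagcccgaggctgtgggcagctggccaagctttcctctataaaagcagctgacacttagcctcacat
Ngp (chr9:110419558-110419807, plus strand): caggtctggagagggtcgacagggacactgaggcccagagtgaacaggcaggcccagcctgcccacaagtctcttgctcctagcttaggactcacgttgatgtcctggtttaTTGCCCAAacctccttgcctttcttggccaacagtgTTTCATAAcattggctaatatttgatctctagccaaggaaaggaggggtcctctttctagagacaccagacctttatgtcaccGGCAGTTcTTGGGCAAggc
AGGAAGT was present before 8 of 10 genes (all but Ngp and S100a9) and in 8 of 11 windows, against 7.69% of 32851 windows over all RefSeq start sites. TTNNGNAA was present before 6 of 10 genes and in 6 of 11 windows, against 36.8% of windows, and was not matched before Mpo, Elane, Prtn3 or Ctsg. For F13a1 each of these motifs was matched before only 1 of its start sites. Before Ngp and before Chi3l3 TTNNGNAA was matched 3 times each, and before S100a9 2 times. AACNGCC was present before 4 of 10 genes (Elane, Ctsg, Ngp and Chi3l3) and in 4 of 11 windows, against 9.83% of windows. No matches share a base in any of the 11 windows. A match is a run of letters in the window and was not measured as a bound site. In the RefSeq gene order Prtn3 and Elane are next to each other on chromosome 10, with 0 protein-coding genes between them, as are S100a8 and S100a9 on chromosome 3.

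With the smallest step of each library taken as 1 read, depth ran from 9950979 to 13700630 reads in the listed genes. Sin3b, the targeted gene, was lower in both knockout libraries, at 755 and 647 normalised counts against 1522 and 1825 in the WT libraries. Of the gate and HSC markers all 13 were listed, with Kit between 17785 and 22329. Genes of the markers that the gate excludes were read in all 4 libraries, Cd34 between 4945 and 6508 and Flt3, which encodes Flk2, between 354 and 1170. The unit of every level below is a normalised read count, the read count of a gene divided by 1 size factor per library.

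The granule genes differed mainly between the numbered libraries, and did so in both genotypes. Both libraries numbered 1 were above both libraries numbered 2 for 10 of 10 genes, against 17.1% of all genes. In the limma fit over all 9244 genes, 7 of 10 passed as higher in the libraries numbered 1 at a Benjamini-Hochberg adjusted p under 0.05, where 0.757% of all genes did so. The median difference of the 10 genes was 2.33 on the log2(value + 1) scale, against -0.022 for all genes. Together the 10 genes made up 0.659% of the listed signal in WT 1, 0.122% in WT 2, 0.447% in Sin3B KO 1 and 0.194% in Sin3B KO 2. In bulk RNA, fewer cells of a type and less RNA per cell cannot be told apart.

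**Figure D1:**
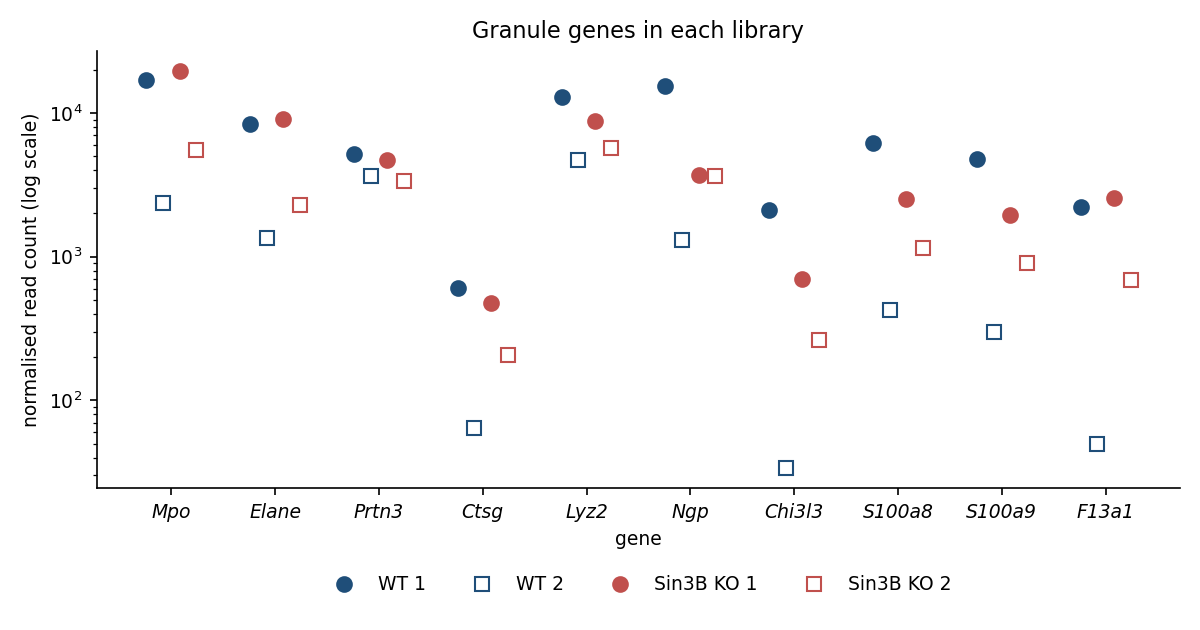
Normalised read count (log axis) of each granule gene in each library, 1 point per library, blue for WT and red for Sin3B KO, filled for number 1 and open for number 2. For every gene the filled points lie above the open points, from 17017 and 19732 against 2359 and 5569 for Mpo to the narrow spread of Prtn3, between 3354 and 5152.

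Among primary granule genes, Mpo (ENSMUSG00000009350), the peroxidase that makes hypochlorous acid, was at 17017 in WT 1, 2359 in WT 2, 19732 in Sin3B KO 1 and 5569 in Sin3B KO 2. It was thus high in both libraries numbered 1, where it ranked 26 and 24 of all genes by normalised count, and fell to rank 1065 in WT 2 and 277 in Sin3B KO 2. The difference between the numbers was 2.34 (SE 0.31) on the log2 scale (limma, Benjamini-Hochberg adjusted p = 3.6e-04). Elane (ENSMUSG00000020125), a protease that cleaves elastin and bacterial proteins, was at 8385 in WT 1, 1352 in WT 2, 9160 in Sin3B KO 1 and 2295 in Sin3B KO 2. It had the same order of libraries as Mpo, with a difference of 2.31 (SE 0.27, limma adjusted p = 2.3e-04). Ctsg (ENSMUSG00000040314), a chymotrypsin-like protease, was read at far lower counts, 602 in WT 1, 64.3 in WT 2, 473 in Sin3B KO 1 and 208 in Sin3B KO 2. Its difference was 2.19 (SE 0.47, limma adjusted p = 0.0242), and the lowest library, WT 2, rested on 65 reads.

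Prtn3 (ENSMUSG00000057729), the proteinase 3 gene that lies beside Elane, was the primary granule gene that varied least. It was at 5152 in WT 1, 3648 in WT 2, 4693 in Sin3B KO 1 and 3354 in Sin3B KO 2. The libraries numbered 1 were again higher, by 1.41-fold in WT and 1.40-fold in the knockout. The difference of 0.49 on the log2 scale (SE 0.23) did not pass (limma adjusted p = 0.67), and its 95% confidence interval ended at 0.98, below the values of Mpo, Elane and Ctsg.

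The genes of later stages reached their highest level in WT 1. Ngp (ENSMUSG00000032484), a cathelicidin-related protein of secondary granules, was at 15381 in WT 1, 1304 in WT 2, 3687 in Sin3B KO 1 and 3624 in Sin3B KO 2. WT 1 stood far above the other libraries and the knockout libraries were nearly equal, so the difference between the numbers was 11.8-fold in WT and 1.02-fold in the knockout. Over both genotypes it was 1.79 on the log2 scale (SE 0.47) and did not pass (limma adjusted p = 0.0938). Chi3l3 was at 2125 in WT 1, 33.6 in WT 2, 696 in Sin3B KO 1 and 265 in Sin3B KO 2. It had the widest spread of the 10 genes, 63.2-fold between the WT libraries with 34 reads in WT 2, and passed with a difference of 3.67 (SE 0.64, limma adjusted p = 0.00503). Reads of its close paralog Chi3l4 may be counted with it, since how reads were assigned to genes is not stated.

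S100a8 (ENSMUSG00000056054) and S100a9 (ENSMUSG00000056071) encode the subunits of calprotectin, which binds calcium and zinc and is abundant in neutrophils and monocytes. S100a8 was at 6165 in WT 1, 425 in WT 2, 2534 in Sin3B KO 1 and 1151 in Sin3B KO 2. S100a9 was at 4789 in WT 1, 299.7 in WT 2, 1959 in Sin3B KO 1 and 902 in Sin3B KO 2. Both genes had the order WT 1, Sin3B KO 1, Sin3B KO 2, WT 2 from high to low. Both passed, with differences of 2.50 (SE 0.40, limma adjusted p = 0.00278) and 2.56 (SE 0.42, limma adjusted p = 0.0032).

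Lyz2 (ENSMUSG00000069516), the lysozyme that digests bacterial cell walls, was at 12893 in WT 1, 4674 in WT 2, 8755 in Sin3B KO 1 and 5694 in Sin3B KO 2. It stayed abundant in every library, and its difference of 1.04 (SE 0.25) did not pass (limma adjusted p = 0.0593), though it did with genotype as a block (limma adjusted p = 0.0108). Reads of the near-identical Lyz1, which is not used here, may be counted with it. F13a1 (ENSMUSG00000039109), the transglutaminase subunit that cross-links fibrin, was at 2230 in WT 1, 49.5 in WT 2, 2576 in Sin3B KO 1 and 691 in Sin3B KO 2. WT 2 stood apart with 50 reads, while both libraries numbered 1 were alike. F13a1 had a difference of 3.68 (SE 0.68, limma adjusted p = 0.0073), which ranked 12 of 9244 by size, next to Chi3l3 at 13.

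Single libraries moved these differences without turning any of them. The median of the 10 genes was 1.97 without WT 1, 1.74 without WT 2, 2.60 without Sin3B KO 1 and 2.995 without Sin3B KO 2. For each of the 7 called genes leaving out WT 2 gave the lowest difference, 1.79 for F13a1, 2.19 for Chi3l3, 1.72 for Mpo, 1.93 for Elane, 1.78 for S100a8 and 1.76 for S100a9, all of which still passed. Leaving out Sin3B KO 2 gave the highest, from 2.70 for Elane to 5.14 for Chi3l3 and 5.57 for F13a1. Without WT 1 Chi3l3 was at 2.86, S100a8 at 1.86 and S100a9 at 1.91, and without Sin3B KO 1 they were at 4.47, 3.14 and 3.20. The call of Ctsg was lost without WT 1 (2.02, limma adjusted p = 0.116) and without WT 2 (1.36, limma adjusted p = 0.104). Ngp passed without Sin3B KO 1 (2.82) and without Sin3B KO 2 (2.53), and Lyz2 without Sin3B KO 1 (1.32). When only genes with a mean of 500 or more were tested, which leaves out Ctsg, Ngp (limma adjusted p = 0.00889) and Lyz2 (0.03003) passed as well and 8 of 9 genes were called. Over all genes tested in that setting, which were fewer, 43 passed as higher in the libraries numbered 1, against 70 in the main fit. These counts come from different sets of genes, so the added calls are not shown to be particular to the granule genes. With genotype as a block Lyz2 passed and 8 of 10 were called. The block also raised the calls over all 9244 genes, from 70 to 145 passing as higher, so the added call is not particular to the granule genes. With upper quartile scaling the calls of Ctsg and F13a1 were lost (limma adjusted p = 0.101 and 0.0586).

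Between genotypes the granule genes went both ways and none passed. Of the 10 genes 0 passed, where 0.0% of all genes did (limma, 0 of 9244), and an unadjusted p under 0.05 was found for 824 genes (8.91%) and for 0 of the 10. The targeted gene Sin3b did not pass either, at -1.25 (SE 0.22, limma adjusted p = 0.548). By the authors' test in the deposited table Sin3b passed (adjusted p = 0.00249), and 31 genes were under 0.05. A gene without a call in this fit is therefore not shown to be unchanged. The WT and Sin3B KO libraries overlapped for every granule gene, while they did not overlap for 44.1% of all genes. The overlap follows from both libraries numbered 1 lying above both numbered 2, so it is not a separate result about genotype. Each library left out moved the genotype median: it was 2.07 without WT 1, -0.90 without WT 2, -0.34 without Sin3B KO 1 and 0.98 without Sin3B KO 2. Ngp alone passed in 1 of these settings, as lower in the knockout without WT 2 (-2.07, limma adjusted p = 0.0316). The median log2 difference, Sin3B KO minus WT, was 0.30 with 7 genes above 0, against 0.033 for all genes. The direction depended on the scale for 3 of these 7, whose mean of normalised counts was lower in the knockout: Chi3l3 (1079 ± 1479 in WT and 480.4 ± 305 in Sin3B KO), S100a8 (3295 ± 4058 and 1843 ± 978) and S100a9 (2544 ± 3174 and 1430.2 ± 748; SD, n = 2). By the means, 4 of 10 genes (Mpo, Elane, Ctsg and F13a1) were higher in the knockout, and the same 4 had a log2 fold change above 0 in the authors' deposited table. Means ± SD (n = 2) were 9688 ± 10365 in WT and 12650.5 ± 10014 in Sin3B KO for Mpo, 8342 ± 9954 and 3656 ± 44.3 for Ngp, and 4400.0 ± 1064 and 4024 ± 947 for Prtn3.

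The 95% confidence intervals of the genotype differences were wide for most of these genes. In the main fit the difference between the library numbers is part of the error. With the number as a block the SE was lower for every granule gene, and 0 of the 10 passed. It was 0.50 in place of 1.41 for F13a1 and 0.22 in place of 0.83 for Mpo. The intervals given here are from the fit without the block. For Prtn3 the log2 difference was -0.13 with a 95% confidence interval from -0.68 to 0.43 (limma), the narrowest of the 10. Chi3l3 had the widest, 0.67 with an interval from -2.74 to 4.07. F13a1 had the largest difference, 1.99 (SE 1.41, limma adjusted p = 0.629), and its interval ran from -1.22 to 5.21. Mpo was at 0.73 (interval -1.17 to 2.63), Elane at 0.45 (-1.41 to 2.30) and Ctsg at 0.66 (-1.36 to 2.69). Lyz2 was at -0.14 (-1.10 to 0.82), Ngp at -0.29 (-2.29 to 1.70), S100a8 at 0.076 (-2.17 to 2.32) and S100a9 at 0.15 (-2.17 to 2.47). In the authors' deposited table the 10 genes had log2 fold changes between -0.14 (Ngp) and 0.049 (Mpo), with adjusted p-values from 0.827 to 0.996. These fold changes are not the same measure as the limma differences. They are also not plain ratios of the means: Ngp had -0.14 with means of 8342 in WT and 3656 in Sin3B KO. They should not be read as measured effects near 0.

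**Figure D2:**
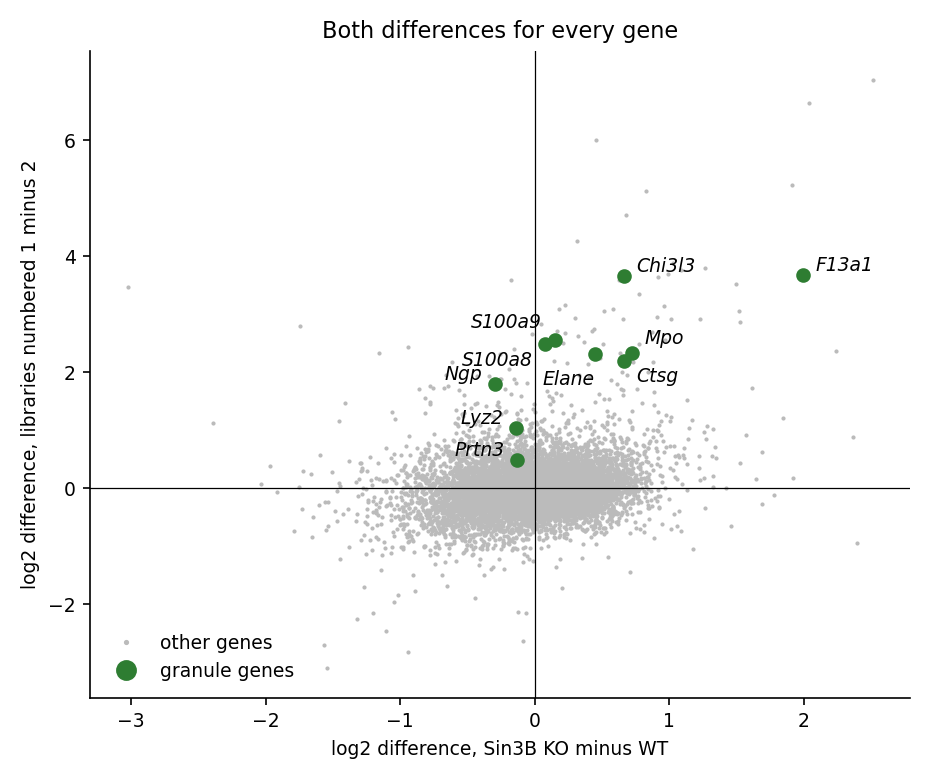
Log2 difference between genotypes (horizontal axis) and between numbered libraries (vertical axis) for every gene, grey for other genes and green for the granule genes. The granule genes lie above 0 on the vertical axis, from 0.49 for Prtn3 to 3.68 for F13a1, and on both sides of 0 on the horizontal axis.

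The genotype difference was not the same in the 2 library numbers. Among the libraries numbered 1, the later genes were lower in the knockout: Ngp was 4.17-fold, Chi3l3 3.05-fold, S100a8 2.43-fold and S100a9 2.44-fold higher in WT 1 than in Sin3B KO 1. Mpo, Elane and F13a1 were within 1.16-fold of each other between these libraries, slightly higher in Sin3B KO 1. Among the libraries numbered 2, the order was the other way for the later genes, which were 2.71-fold (S100a8) to 7.88-fold (Chi3l3) higher in Sin3B KO 2 than in WT 2. F13a1 was 14.0-fold, Ctsg 3.23-fold, Mpo 2.36-fold and Elane 1.70-fold higher in Sin3B KO 2. Prtn3 differed least, at 0.911 and 0.919 of the WT value in numbers 1 and 2. The pattern of lower in the knockout among number 1 and higher among number 2 held for 6 of 10 genes (Ctsg, Lyz2, Ngp, Chi3l3, S100a8 and S100a9), against 18.0% of all genes. With 1 library per genotype and number these differences have no test.

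**Figure D3:**
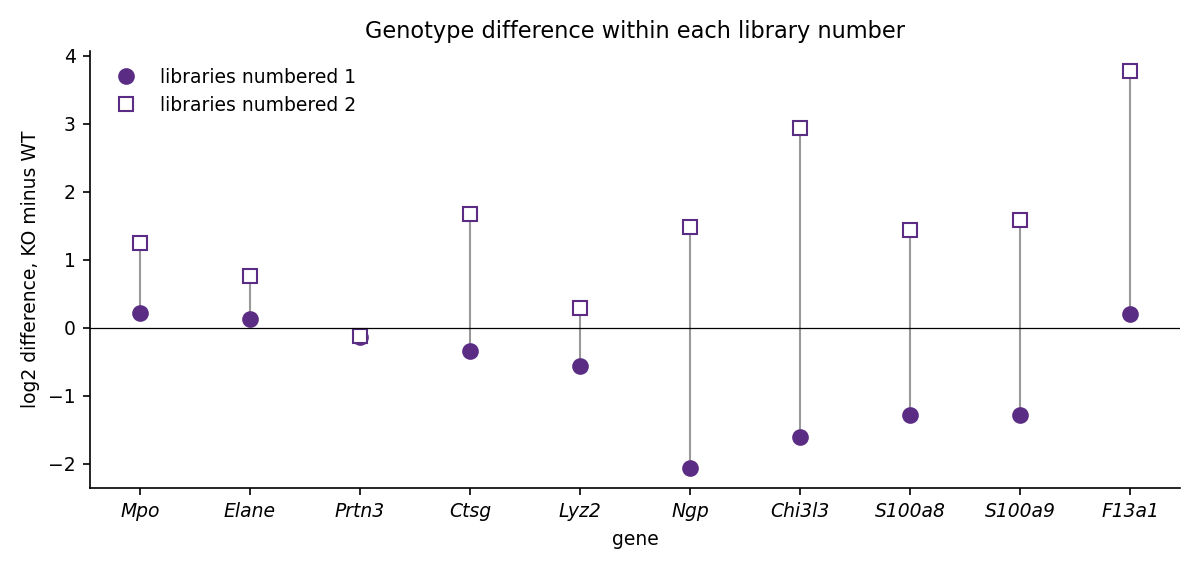
Log2 difference Sin3B KO minus WT on the log2(value + 1) scale for each granule gene, filled circles for the libraries numbered 1 and open squares for those numbered 2, joined by a line. The lines of Ctsg, Lyz2, Ngp, Chi3l3, S100a8 and S100a9 cross 0, as from -2.06 to 1.47 for Ngp, while both points of Prtn3 lie at -0.13 and -0.12.

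Ratios within a library show which genes moved together. S100a8 over S100a9 was 1.29 in WT 1, 1.42 in WT 2, 1.29 in Sin3B KO 1 and 1.28 in Sin3B KO 2, although the level of each gene varied 14.5-fold or more between the WT libraries. Elane over Mpo was 0.493, 0.573, 0.464 and 0.412 in the same order of libraries, a 1.39-fold range. Ctsg over Mpo kept within a 1.56-fold range. F13a1 over Mpo was 0.131, 0.131 and 0.124 in WT 1, Sin3B KO 1 and Sin3B KO 2 and 0.0210 in WT 2. Other pairs came apart. Prtn3 over Mpo was 0.303 and 0.238 in WT 1 and Sin3B KO 1 and 1.55 and 0.602 in WT 2 and Sin3B KO 2, and Lyz2 over Mpo ranged 4.47-fold. Ngp over Mpo was 0.904 in WT 1 and 0.187 in Sin3B KO 1, with WT 2 at 0.553 and Sin3B KO 2 at 0.651. The sum of Ngp, Chi3l3, S100a8 and S100a9 over the sum of Mpo, Elane, Prtn3 and Ctsg was 0.913 in WT 1, 0.278 in WT 2, 0.261 in Sin3B KO 1 and 0.520 in Sin3B KO 2. These ratios are descriptions of 4 libraries and were not tested.

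**Figure D4:**
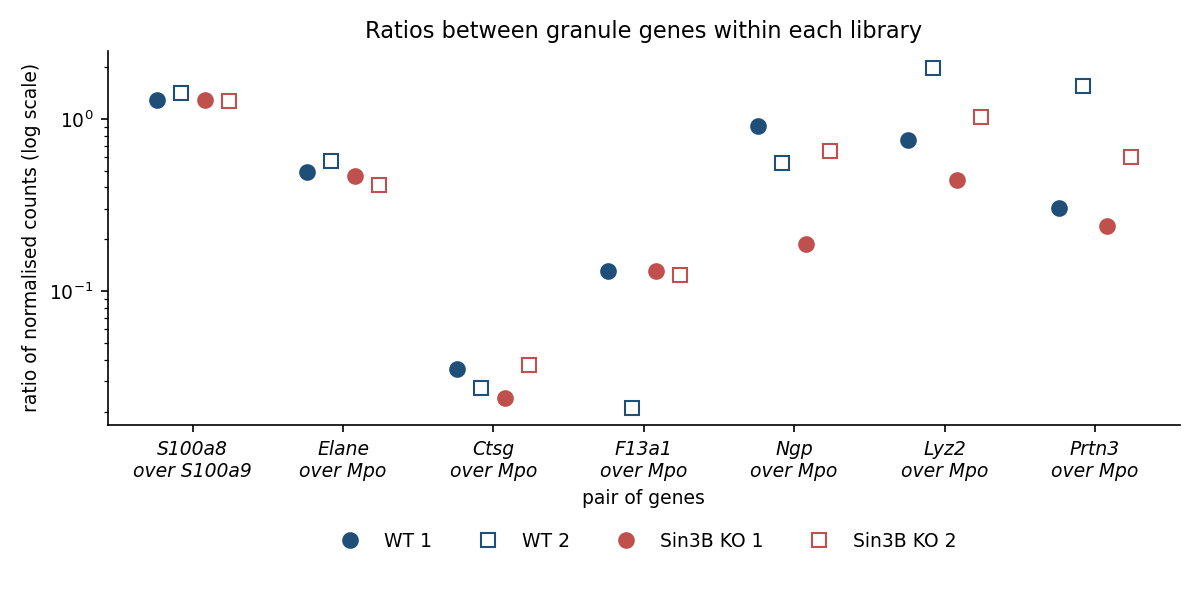
Ratio of the normalised counts of pairs of granule genes in each library (log axis), blue for WT and red for Sin3B KO, filled for number 1 and open for number 2. S100a8 over S100a9 stays between 1.28 and 1.42, Prtn3 over Mpo is highest in WT 2 at 1.55, and F13a1 over Mpo is lowest there at 0.0210.

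Per kilobase of exon, the order of the genes differed between libraries. In WT 1 the highest levels were those of S100a8 at 12685 and Ngp at 12586 normalised counts per kilobase, followed by Lyz2 at 9797, S100a9 at 9174 and Elane at 8521. In WT 2 Prtn3 (3559) and Lyz2 (3552) led and were nearly equal, followed by Elane at 1374. In Sin3B KO 1 Elane led at 9309, with Mpo at 6795 and Lyz2 at 6653, and in Sin3B KO 2 Lyz2 (4327) and Prtn3 (3272) led again. Over the 4 libraries the means ran from 6082 for Lyz2 through Elane (5384), S100a8 (5286), Ngp (4909), Prtn3 (4109) and Mpo (3846) to 3807 for S100a9, and the ranges of these 7 genes all overlapped. Chi3l3 (507), F13a1 (346) and Ctsg (336) formed the low end, again with overlapping ranges.

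Other proteins of neutrophil granules and their surroundings followed in part. Of 25 listed, 15 were measured, and 12 of these were above 0 between the numbered libraries with a median log2 difference of 1.46. Those that passed as higher in the libraries numbered 1 were 5 (limma, Benjamini-Hochberg adjusted p under 0.05): Camp, the cathelicidin peptide, Fcnb, a lectin of granules, Hp, haptoglobin, Ms4a3, a marker of granulocyte and monocyte progenitors, and Igsf6. Camp was at 3175 in WT 1, 160.2 in WT 2, 1001 in Sin3B KO 1 and 495 in Sin3B KO 2, and Fcnb at 1565 and 92.0 and at 1185 and 274. The secondary granule gene Ltf, lactoferrin, was at 3279 in WT 1 and between 386 and 886 elsewhere and did not pass. The most abundant were Alox5ap (3686 to 5076), the activator of leukotriene synthesis, Gusb (2593 to 2983), a lysosomal glucuronidase, and Ltf. Between genotypes 0 of the 15 passed (median 0.24).

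As a set, genes that make and handle granules did not follow the cargo. Of 13 measured 0 passed in either comparison, and their median between the numbered libraries was -0.13. Of these 4 were above 0, the highest being Lyst at 0.82, and 9 were below. Srgn, the proteoglycan that packs proteases into granules, was at 13123 in WT 1, 9664 in WT 2, 11851 in Sin3B KO 1 and 11581 in Sin3B KO 2. Its libraries stood in the same order as for S100a8, over a narrower range. Ctsc, the peptidase that activates the serine proteases, was at 1833 and 1176 and at 1967 and 1866. Stxbp2 (4282 to 5574) and Unc13d (3759 to 5201), which act in granule release, were the next most abundant after Srgn. Of the protease inhibitors 8 of 13 were measured and 0 passed, with a median of -0.31. Serpinb1a, an inhibitor of elastase and cathepsin G, was at 2861 and 1349 in WT and 2698 and 1862 in the knockout (log2 difference 0.81, limma adjusted p = 0.228), while Serpina3g (7959 to 14150) and Cst3 (3269 to 3800) were the most abundant.

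The NADPH oxidase, the enzyme of the oxidative burst, was split. Cybb, its catalytic subunit, was at 1728 in WT 1, 92.0 in WT 2, 695 in Sin3B KO 1 and 314 in Sin3B KO 2, and passed between the numbers with Ncf1 (2 of 6 genes). Rac2 (12121 to 15895), Cyba (1489 to 2204) and Ncf4 (384 to 1032), the most abundant of the 6, did not pass. Of 11 measured regulators, Irf8, a factor of monocyte fate, passed as higher in number 1 and Klf4, another such factor and an early response gene, as lower. Irf8 was at 784 and 188 in WT and 606 and 202 in the knockout, and Klf4 at 106.0 and 455 in WT and 89.4 and 292 in the knockout. Myb (3878 to 5907), Csf3r (885 to 1496), the receptor of the granulocyte growth factor, and Runx1 (823 to 1515) did not pass, and between genotypes 0 of 6 oxidase genes and 0 of 11 regulators did.

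Monocyte genes moved with the granule genes between the numbers, and so did some markers of other lineages. Of 16 measured monocyte genes, 15 were above 0 (median 1.99), 7 passed as higher and 1, Klf4, as lower. Their summed level was 10300 in WT 1, 2762 in WT 2, 8096 in Sin3B KO 1 and 4587 in Sin3B KO 2, and 0 passed between genotypes. The most abundant were Fcer1g (468 to 1087), Ly6c2 (67.3 to 1414), which passed, and Ms4a6b (470 to 662). Of 9 B lineage markers 6 passed as higher in number 1, their summed level being 5148 and 6360 in the libraries numbered 1 and 2363 and 3018 in those numbered 2. All 12 erythroid markers were above 0 (median 1.36) and 4 passed, the membrane protein gene Slc4a1 being at 0 in WT 2 and 1194 in WT 1. Summed levels of the 12 were 60158 and 82219 in number 1 and 57731 and 63345 in number 2. Car2 (49010 to 58231) made up most of each sum. Hdc, of mast cells and basophils, passed among 4 markers, of which 3 were above 0 and 1 below (median 2.75). Vcam1 and Flt3 passed among 7 markers of macrophages and dendritic cells. Of these 7 markers 3 were above 0 and 4 below, with a median of -0.076 and the lowest at -2.47. Of 9 platelet and 3 T and NK markers 0 passed, and of 8 eosinophil markers 0 were measured. The platelet markers had a median of 0.062, with 5 above 0 and 4 below. Ppbp had the highest difference of them, 3.46, at 3854 in WT 1 and 41.9 to 121 in the other libraries. Of 13 gate and HSC markers 1, Flt3, passed, and the median was -0.11. The part of other cells in the granule gene differences was not tested.

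**Figure D5:**
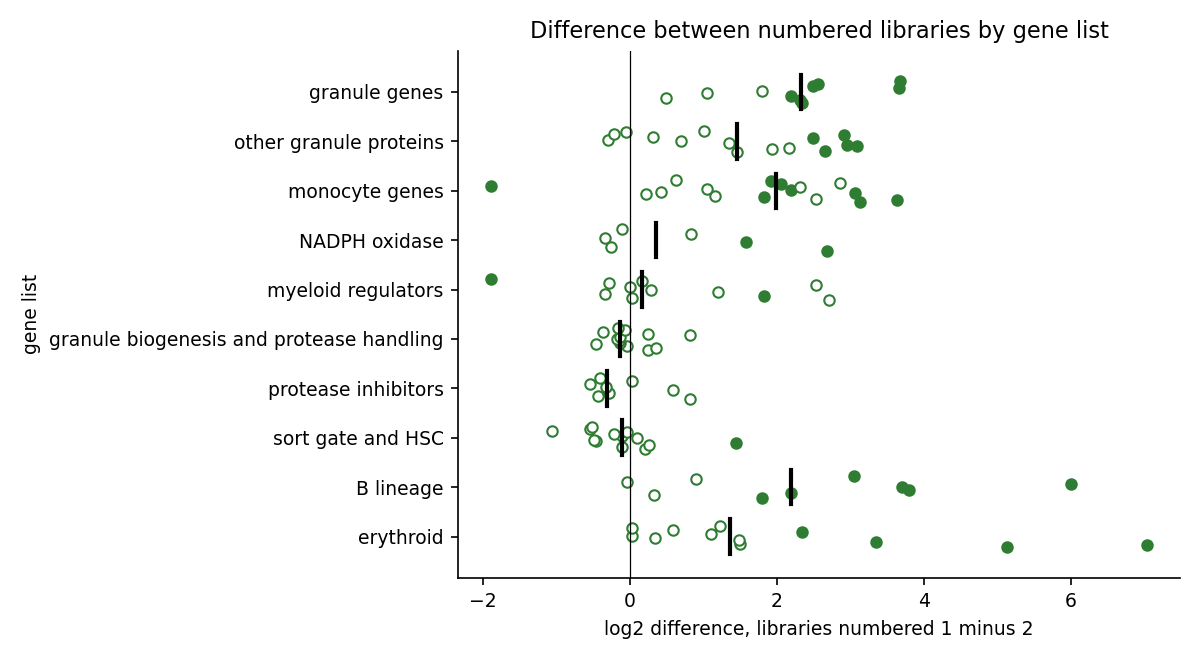
Log2 difference between the libraries numbered 1 and 2 for each measured gene of 10 lists, filled where the gene passed (limma, adjusted p under 0.05) and open where it did not, with a black bar at the list's median. The granule genes, monocyte genes and B lineage markers have medians of 2.33, 1.99 and 2.19, and the gate and HSC markers of -0.11.

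The profile most like the mean of the 10 genes over the 4 libraries, measured as the Euclidean distance between log2 values centred on each gene's mean, was that of Ctsg (distance 0.27). This ranking left out names that begin with a digit, LOC or Gm plus digits, or that end in Rik. Among the rest, genes outside the 10 with the nearest profiles were BC035044 (0.28), Lgals3 (0.31), Tifab (0.33), Tyrobp (0.40) and Sgms2 (0.45). Lgals3, galectin 3, was at 511 in WT 1, 56.4 in WT 2, 289 in Sin3B KO 1 and 122 in Sin3B KO 2. Of the 10, Prtn3 (2.14) and F13a1 (2.24) lay farthest from the mean profile. With 4 libraries many genes can come this near, and the distances are a description.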

How the data were processed

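RNA was sequenced from 4 libraries, 2 WT and 2 Sin3B KO, grouped by their titles. Per the labels, polyA RNA was made into libraries by the SMARTer method for low inputs. Bowtie, DESeq and the build mm9 stand in the submitters' processing notes without versions. How reads were counted, and on which annotation, is not stated there. The authors deposited 1 table whose library columns hold a signal, the normalised read count: every value was a whole multiple of 1 step per library within 0.01 of a step. Per the file headers the table also holds the authors' log2 fold change and its error, a test score, p-values and adjusted p-values. The lowest mean listed is 120.2, and 552 of 9796 genes without library values were left out.

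A filter of at least 1 in 2 libraries kept all 9244 genes. limma 3.58.1 in R 4.3.3 was run on log2(value + 1) with a trended prior, two-sided, once for genotype and once for library number, with Benjamini-Hochberg adjustment over all genes and a threshold of 0.05. The fit was also run on simulated data that held no difference between library numbers, so that run does not measure its power here. No set test was run. The authors' size factors assume that most genes do not differ, so levels are relative to the other genes of a library. The 10 genes, the lists and the comparison of numbered libraries were chosen with earlier results of these data known. Named genes are the 10, Sin3b, up to 3 most abundant genes of each list and the 5 nearest profiles; the other genes named were chosen after their values were seen, and not every gene that the rule takes is printed. Exon lengths came from GENCODE M21 through the Ensembl identifiers, or through the RefSeq synonym for Chi3l3. Alternatives were pseudocounts of 0.1 and 5, 2 other scalings, no filter, a mean of at least 500, the other factor as a block, and leaving out single libraries. Whole reads were not used for a count model.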

Additional observations from a re-analysis of the deposited data

Results flagged for a closer look

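For 6 granule genes the difference between genotypes had opposite directions in the libraries numbered 1 and 2. This difference between the numbers was not tested, since each genotype has 1 library per number. On the log2(value + 1) scale, Sin3B KO minus WT was -0.35 in number 1 and 1.68 in number 2 for Ctsg, and -0.56 and 0.28 for Lyz2. For Ngp it was -2.06 and 1.47, and for Chi3l3 -1.61 and 2.94. S100a8 had -1.28 and 1.43, and S100a9 -1.29 and 1.59.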

How the results depend on the processing

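Pseudocounts, scaling and filters did not move the medians of the granule genes by more than the spread between libraries. Between genotypes, the alternatives other than leaving out a library turned 1 gene, S100a8, from 0.076 to -0.037 with upper quartile scaling. With the replicate block, the library number as a second term, 27 genes passed between genotypes in place of 0, of which 0 were granule genes, and the number was not shown to pair the libraries: the deviations of same-numbered libraries correlated across genes (r = 0.46 over 9244 genes, which are not independent replicates), but the labels do not say what the number marks. Leaving out 1 library at a time, with the lone library assumed to vary like the others, gave 0 to 1 genes between genotypes and medians of the granule genes from -0.90 to 2.07. Single genes then ranged from -0.70 to 2.15 for Mpo, -0.87 to 1.76 for Elane, -0.38 to 0.12 for Prtn3, -0.94 to 2.27 for Ctsg, -0.87 to 0.59 for Lyz2, -2.07 to 1.49 for Ngp, -2.30 to 3.64 for Chi3l3, -1.85 to 2.003 for S100a8, -1.85 to 2.15 for S100a9 and -0.74 to 4.73 for F13a1. Of these only Ngp passed, without WT replicate 2 (-2.07, limma adjusted p = 0.0316). Between the numbered libraries 85 genes passed, 50 with upper quartile scaling, 53 when only means of 500 or more were tested (fewer genes), 195 with genotype as a block, and 81 to 198 with 1 library left out; the median of the granule genes then ranged from 1.74 to 2.995. Where not given, the cause was not tested. The edgeR and DESeq2 alternatives were not run, because the table was treated as normalised values. Counts of 34 to 65 reads limit Chi3l3, Ctsg and F13a1 in WT 2.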
